A study of Mus musculus with 10 samples.

Results

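The genes described here are 10 markers of resident perivascular macrophages, Cd163, Mrc1, Lyve1, Folr2, Cd209f, Cbr2, F13a1, Fcna, Stab1 and Msr1. They were chosen by symbol from the 14623 genes of a single-cell count table, and all 10 had a row. The group is called scavenger and endocytic receptors, but Cbr2, F13a1 and Fcna encode an enzyme, a transglutaminase subunit and a secreted lectin. Each gene was followed through the macrophage, monocyte, endothelial and other cell classes of fat tissue and compared between genotypes.

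The cells were the stromal vascular fraction, that is the cells that remain once fat has been digested and the adipocytes removed. They came from inguinal white adipose tissue of a Bbs8 KO mouse (KO), which lacks Bbs8 in every tissue, and of a Bbs8 WT mouse (WT), both 7 weeks old and still lean. The table held 8985 cells with 3144195 UMIs (unique molecular identifiers, each standing for a captured mRNA molecule) in KO and 1929 cells with 715989 UMIs in WT, with a median of 251 and 278 UMIs per cell. As the series text names 1 mouse per genotype, no test between genotypes was made, and the 5 barcode sets of each genotype, named by the codes in the cell names, were treated as technical. What the numbers in these codes (KO5 and KO6, WT3 and WT4) stand for is not given in the sources used here, and if they are animals the spread over sets also holds differences between mice. The paper's methods describe more than 1 array per sample and pooled reactions within an array, but do not link the codes to either. Levels are in CPM, UMIs of a gene scaled to the same total of UMIs in every class, genotype or set. Ttc8, the gene symbol of Bbs8, had 5 UMIs (6.98 CPM) in WT, all in set WT4_p2, and 0 in KO, a count that allows at most 0.954 CPM.

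Resident macrophages of fat sit along blood vessels and take up proteins, hyaluronan, folate, modified lipoproteins and cell debris from the tissue fluid. Their endocytic receptors hold their ligands at the cell surface, carry them into the cell and often return to the surface for another round. Monocytes arriving from the blood gain these receptors as they turn into tissue macrophages, and Lyve1 and Stab1 are also made by lymphatic and sinusoidal endothelium.

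Among the receptors, Cd163 (chr6:124304656-124330527, plus strand) clears complexes of haemoglobin and haptoglobin. Mrc1 (chr2:14229392-14332057, plus strand) is the mannose receptor, and Cd209f (chr8:4102787-4105835, minus strand) is a C-type lectin related to the dendritic cell lectin DC-SIGN. Lyve1 (chr7:110850607-110863239, minus strand) binds hyaluronan, Stab1 (chr14:31139013-31168641, minus strand) is a scavenger receptor of macrophages and endothelium, Msr1 (chr8:39581685-39642673, minus strand) is the class A receptor for modified low-density lipoprotein, and Folr2 (chr7:101839988-101857194, minus strand) is a folate receptor. Of the others, Cbr2 (chr11:120729489-120732114, minus strand) is a carbonyl reductase, F13a1 (chr13:36867178-37050244, minus strand) is the catalytic subunit of the fibrin-crosslinking factor XIII, and Fcna (chr2:25624666-25628030, minus strand) is ficolin A, which starts the lectin pathway of complement. Positions are those of the genome build GRCm38.

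The sequences upstream of 6 members are shown because these genes carried the differences between classes or genotypes described further on (Mrc1, F13a1, Cd209f and Cbr2), or held both motifs searched for (Fcna and Stab1). They are RefSeq promoters of GRCm38, read 5′ to 3′ on the strand of the gene from its upstream side, and bases that lie inside the annotated gene were left out. Capitals mark GAGGAA, the core bound by ETS factors such as PU.1, and TGCTGA, a part of the element bound by MAF factors, on either strand, so that TTCCTC is GAGGAA on the opposite strand.
Mrc1, chr2:14229164-14229391, plus strand: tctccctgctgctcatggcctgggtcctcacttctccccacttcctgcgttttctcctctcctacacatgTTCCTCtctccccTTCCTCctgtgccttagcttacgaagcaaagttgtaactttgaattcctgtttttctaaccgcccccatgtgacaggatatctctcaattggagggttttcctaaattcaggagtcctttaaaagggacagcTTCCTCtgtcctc
F13a1, chr13:37050245-37050494, minus strand: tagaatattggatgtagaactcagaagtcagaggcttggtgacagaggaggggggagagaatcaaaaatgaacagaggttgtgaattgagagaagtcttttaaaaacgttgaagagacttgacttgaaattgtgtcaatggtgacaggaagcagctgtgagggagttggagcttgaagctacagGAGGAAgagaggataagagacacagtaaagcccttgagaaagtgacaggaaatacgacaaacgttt
Fcna, chr2:25628031-25628224, minus strand: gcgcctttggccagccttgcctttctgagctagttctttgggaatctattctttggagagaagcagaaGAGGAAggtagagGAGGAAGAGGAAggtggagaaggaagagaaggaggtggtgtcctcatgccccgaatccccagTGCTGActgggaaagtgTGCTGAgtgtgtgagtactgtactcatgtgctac
Stab1, chr14:31168642-31168891, minus strand: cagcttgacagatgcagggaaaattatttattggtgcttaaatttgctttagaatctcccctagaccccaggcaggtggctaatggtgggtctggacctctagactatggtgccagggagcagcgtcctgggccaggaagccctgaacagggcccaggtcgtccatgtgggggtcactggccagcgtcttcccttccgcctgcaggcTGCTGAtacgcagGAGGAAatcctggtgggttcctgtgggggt
Cd209f, chr8:4105836-4106014, minus strand: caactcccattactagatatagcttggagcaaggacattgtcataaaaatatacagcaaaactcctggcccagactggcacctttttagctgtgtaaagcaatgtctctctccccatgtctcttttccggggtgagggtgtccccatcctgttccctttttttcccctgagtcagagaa
Cbr2, chr11:120732115-120732271, minus strand: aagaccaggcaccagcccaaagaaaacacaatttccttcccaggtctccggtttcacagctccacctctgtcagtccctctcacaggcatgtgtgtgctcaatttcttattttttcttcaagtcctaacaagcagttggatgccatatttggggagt

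Of the 10 members, 8 had RefSeq promoters, with 10 windows of 250 bases among them. GAGGAA was present in 5 of these 10 windows, in Mrc1 and Fcna 3 times each, and in 23.3% of the 32851 windows of all genes. The second window of F13a1, chr13:37049214-37049463, holds neither motif and is not printed. The copy of Cbr2 lies in its first annotated bases, so the printed stretch shows none. TGCTGA was present in 4 windows, belonging to Fcna, Stab1 and both windows of Folr2, against 16.1% of all windows, and both motifs together were present in Fcna and Stab1 and in 3.68% of all windows. The motif letters do not overlap each other, the matches are a description of letters only, and no factor binding was measured.

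The cells were clustered and named with the 10 members left out, so that the members' levels in each class did not shape the classes. A single cluster of 697 cells was macrophage-like. All 13 macrophage markers used for naming were detected in it, among them Csf1r at 2187 CPM in KO and 2925 CPM in WT. It held 561 KO cells, 6.24% of all (exact binomial 95% interval, 5.75 to 6.76), and 136 WT cells, 7.05% (5.95 to 8.29), with a median of 303 and 292 UMIs per cell. The intervals given here and further on cover counting error only.

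The libraries differed in ways that touch these cells. The sets held 1635 to 2005 cells in KO and 196 to 768 cells in WT, and the macrophage-like cells of a set numbered 84 to 141 and 13 to 49. Of 10847 barcodes, 36 occurred in more than 1 set, and 4 of them occurred in 7 or more sets, in 37 cells of which 0 were macrophage-like. Macrophage-like cells with a UMI of a T cell, B cell, endothelial or stromal marker made up 80.2% in KO (450 of 561, 76.7 to 83.4) and 51.5% in WT (70 of 136, 42.8 to 60.1). The summed naming markers of macrophages stood at 14563 CPM in KO and 20493 CPM in WT, with sets of 13076 to 16041 CPM against 18584 to 24551 CPM, which do not overlap.

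The summed members stood highest in macrophage-like cells. Their level in macrophage-like cells was 18558 CPM (exact Poisson 95% interval, 18018 to 19110) in KO and 17387 CPM (16302 to 18524) in WT, and that of all other cells was 986 and 610 CPM. Macrophage-like cells held 61.0% of all member UMIs in KO (4473 of 7335) and 70.4% in WT (957 of 1360). When macrophage-like cells with a UMI of a T cell, B cell, endothelial or stromal marker were counted among the other cells, these shares were 12.6% and 31.9%. In KO all 10 members, each with at least 20 UMIs outside macrophage-like cells too, exceeded the other cells by more than 2 on the log2 scale, as did 2.05% of all genes with at least 20 UMIs. In WT this held for the 9 members with at least 20 UMIs and for 3.16% of genes, but Lyve1 and Fcna had 14 and 17 UMIs outside macrophage-like cells and passed the minimum only through them, so nothing is read from the WT count.

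**Figure D1:**
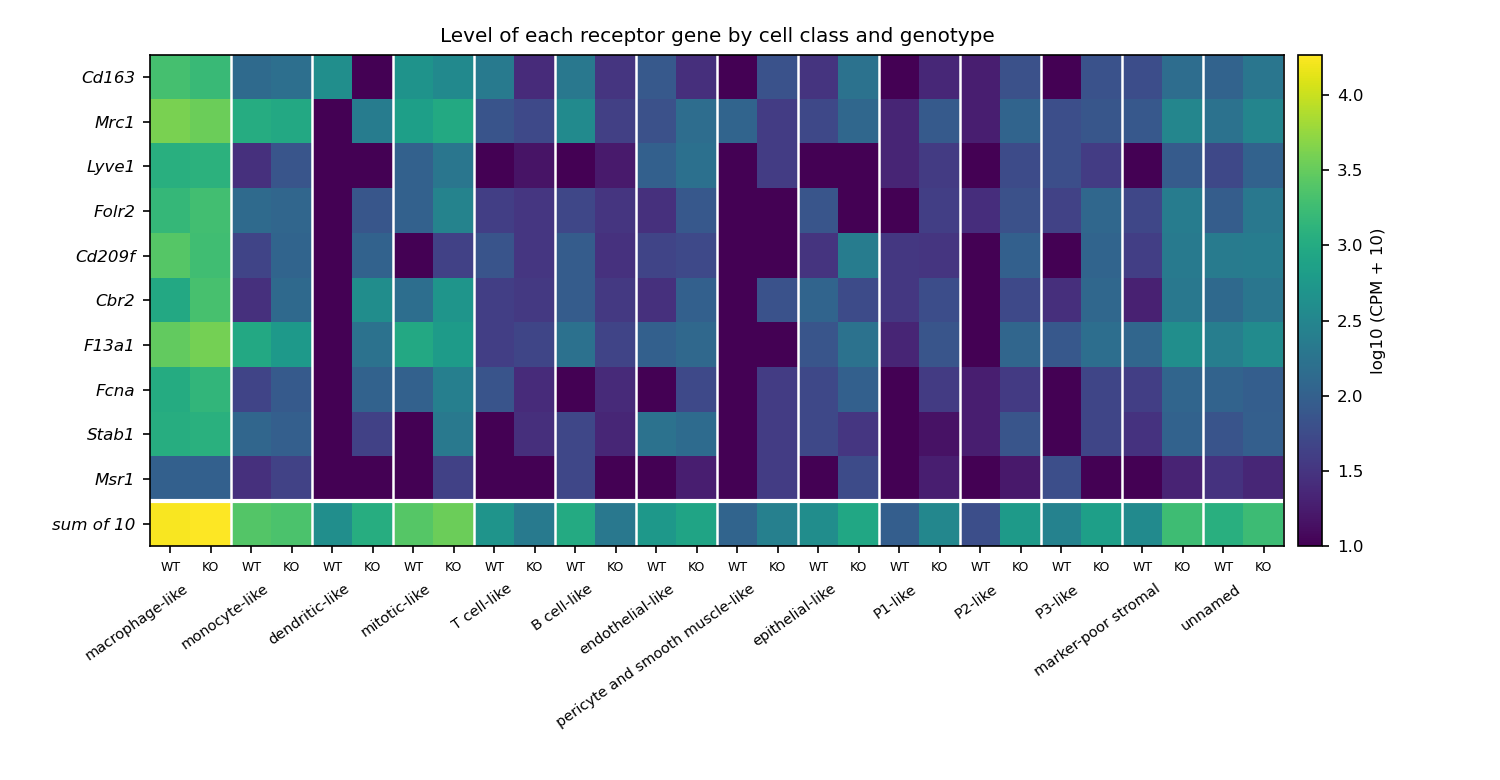
Level of each of the 10 members in each cell class, in CPM on a log scale, for KO and WT. The macrophage-like class has the highest summed level in both genotypes (18558 and 17387 CPM), and monocyte-like cells show mainly Mrc1 and F13a1.

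The distance to the other myeloid cells depended on the member. Mrc1 was 3.77-fold higher in macrophage-like than in monocyte-like cells of KO (95% interval, 3.17 to 4.49) and 3.93-fold higher in WT (2.93 to 5.35). F13a1 was 6.72-fold higher (5.45 to 8.35) in KO and 3.31-fold higher (2.41 to 4.62) in WT. For the other members with at least 11 monocyte UMIs in KO, the fold ran from 11.2 for Cd163 to 19.5 for Lyve1. Msr1 stood 2.64-fold above monocyte-like cells there, on 6 monocyte UMIs (1.04 to 7.96).

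Cd209f, Cd163 and Mrc1 were lower in macrophage-like cells of KO in the summed counts, although their sets overlapped between genotypes. Cd209f had 1622, 2134, 1908, 1688 and 1765 CPM in the sets KO5_p2, KO5_p3, KO6_p1, KO6_p2 and KO6_p3, and 2968, 1969, 2186, 2111 and 3402 CPM in WT3_p1, WT3_p2, WT3_p3, WT4_p2 and WT4_p3. Only KO5_p3 reached into the range of the WT sets. The totals were 1813 CPM (437 UMIs) and 2507 CPM (138 UMIs), a log2 ratio of KO over WT of -0.47 (95% interval, -0.75 to -0.18). It was -0.30 without WT4_p3, with an interval that spanned 0 (-0.62 to 0.04), and -0.10 in the cells without a UMI of a T cell, B cell, endothelial or stromal marker.

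For Cd163, the haemoglobin scavenger, the same sets gave 1622, 1593, 2046, 1239 and 1540 CPM in KO and 1272, 2432, 3280, 1935 and 2010 CPM in WT. Of the WT sets, 3 lay within the range of the KO sets, and the highest, WT3_p3, came from 13 cells. The totals were 1614 and 2035 CPM, with a log2 ratio of -0.33 (-0.64 to -0.02). Mrc1 showed 4247, 3376, 4023, 2819 and 2874 CPM in KO and 4664, 4748, 3826, 3474 and 4329 CPM in WT. The ranges shared the stretch from 3474 to 4247 CPM, and the log2 ratio of the totals, 3452 against 4051 CPM, was -0.23 (-0.45 to -0.01). In the 177 macrophage-like cells (111 KO and 66 WT) without a UMI of a T cell, B cell, endothelial or stromal marker, these ratios were 0.13 for Cd163 and 0.05 for Mrc1, so their direction depended on which cells were counted.

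Lyve1, Stab1 and Msr1 had intervals that spanned 0. Lyve1 had 1408, 1215, 1318, 1149 and 1108 CPM in the KO sets and 1272, 2085, 1366, 924 and 773 CPM in the WT sets. Its WT sets lay on both sides of the narrower KO range, and the totals were 1236 and 1145 CPM (log2 ratio 0.11, -0.29 to 0.53). Stab1 had 1121, 1404, 1283, 1005 and 1047 CPM against 424, 811, 1913, 1099 and 1314 CPM, with totals of 1162 and 1072 CPM (0.12, -0.29 to 0.55). Msr1 was sparse, with 22 UMIs in KO (91.3 CPM) and 5 in WT (90.8 CPM). Its interval of the log2 ratio, -1.43 to 1.76, leaves either direction possible, and 3 sets had 0 UMIs, which allows up to 61.6 CPM in KO6_p3, 820 CPM in WT3_p3 and 232 CPM in WT4_p3.

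Cbr2, the carbonyl reductase, showed the highest ratio of the 10. Its sets stood at 2123, 1377, 2254, 2226 and 2012 CPM in KO and 989, 926, 2186, 748 and 850 CPM in WT. All KO sets lay above 4 of the 5 WT sets, and WT3_p3, with 8 UMIs from 13 cells, reached into the KO range. The totals were 2041 CPM (492 UMIs) and 927 CPM (51 UMIs), 2.2-fold higher in KO (1.65 to 3.00), a log2 ratio of 1.14 (0.72 to 1.59). With a set left out the log2 ratio was 0.95 to 1.28, the lowest without WT4_p2, and it was 0.60 when every cell was thinned to 200 UMIs before clustering.

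Folr2, F13a1 and Fcna were also higher in the summed counts of KO. Folr2, the folate receptor, had 1742, 2188, 2202, 1885 and 1478 CPM in the KO sets and 1555, 2085, 1366, 1495 and 1082 CPM in the WT sets. Its ranges overlapped between 1478 and 2085 CPM, and the log2 ratio of 1900 over 1490 CPM was 0.35 (0.01 to 0.71). F13a1 had 3961, 4591, 4422, 3268 and 3100 CPM against 2686, 3822, 4099, 2639 and 3170 CPM. Its highest sets were in KO and its lowest in WT, with 3834 and 3052 CPM in total (0.33, 0.09 to 0.57). Fcna, the complement lectin, had 978, 1891, 1699, 1257 and 1273 CPM against 707, 1621, 1093, 792 and 1160 CPM, with totals of 1415 and 1017 CPM (0.47, 0.06 to 0.91). Under the thinning before clustering, the ratio of Fcna was 0.05, and without the 6% of cells with the most UMIs that of F13a1 was 0.06.

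**Figure D2:**
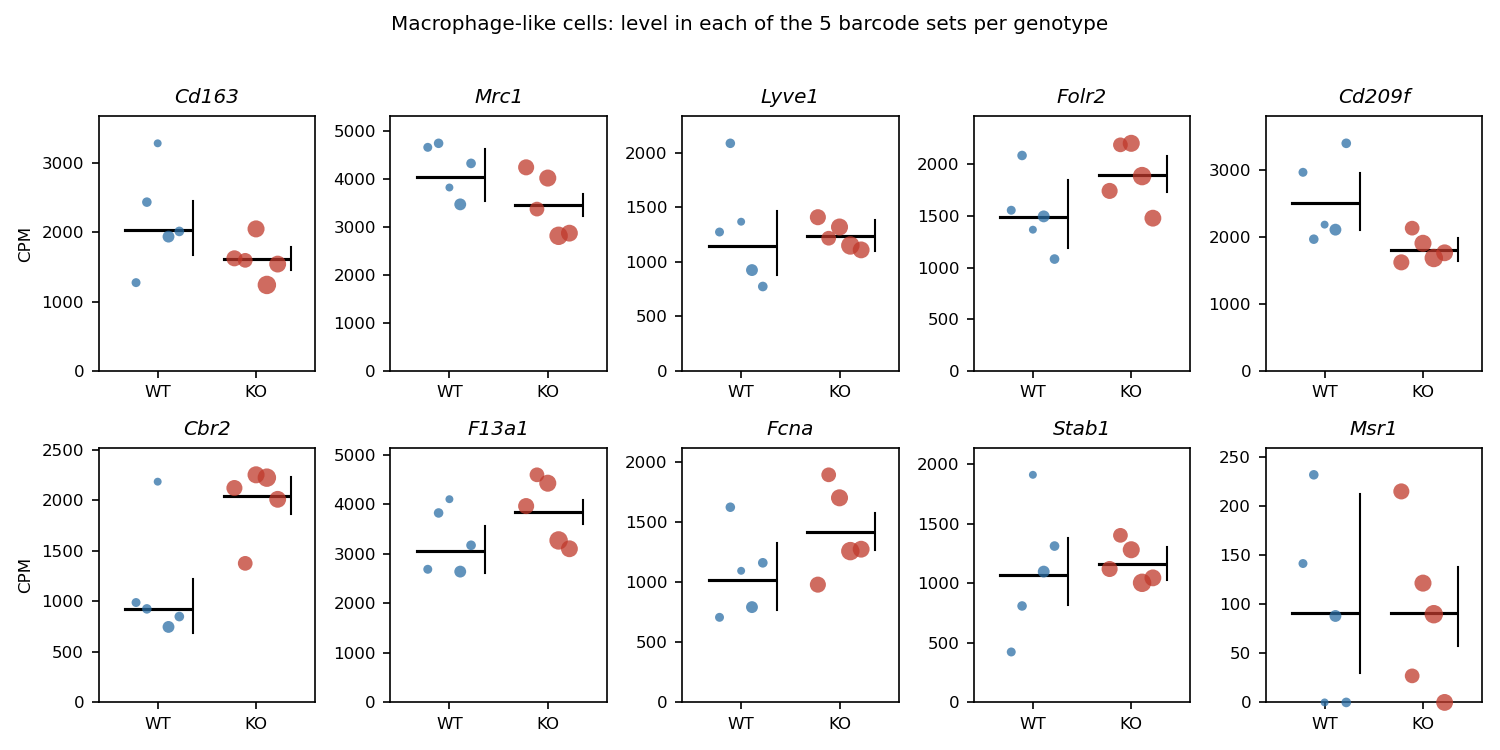
Level of each member in macrophage-like cells, in CPM, with a point for each of the 5 barcode sets of KO and of WT, which were treated as technical. The sets of the 2 genotypes overlap for every member, and for Cbr2 only WT3_p3 (2186 CPM) lies within the KO range.

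Of the 10 members, all of which had at least 20 UMIs in this class, 7 had a higher and 3 a lower level in KO. The interval lay above 0 for 4 (Folr2, Cbr2, F13a1 and Fcna), below 0 for 3 (Cd163, Mrc1 and Cd209f) and spanned 0 for 3, while over the 2680 genes with at least 20 UMIs it lay above 0 for 5.26% and below 0 for 6.27%. Intervals narrow with the number of UMIs, and over the 131 genes with at least 200 UMIs, which include 9 members and all 7 of these, the shares were 19.8% and 30.5%. Cbr2 was the 1 member past a log2 ratio of 1, which 15.3% of the 2680 genes also passed, and 0 members were under -1, against 5.90% of genes. The sets of the genotypes were apart for 0 members and for 3.62% of genes. The median log2 ratio was 0.11 over the members and 0.05 over all 2680 genes.

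The summed members had 19039, 19796, 21278, 16625 and 16196 CPM in the KO sets and 16678, 20730, 21317, 15305 and 18090 CPM in the WT sets. The ranges nearly coincided, and the log2 ratio of the totals was 0.09 (-0.01 to 0.20). It fell to -0.02 without WT4_p2 and to -0.13 without the 6% of cells with the most UMIs. Scaling by TMM or DESeq2 size factors in place of total UMIs added 0.12 or 0.13 to every log2 ratio in macrophage-like cells, which turned the sign of none of the 10. The intervals of Cd163 and Mrc1 then spanned 0 (with TMM, -0.52 to 0.11 and -0.32 to 0.11), so that Cd209f was the 1 member with an interval below 0, and that of the sum lay above 0 (0.12 to 0.32).

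**Figure D3:**
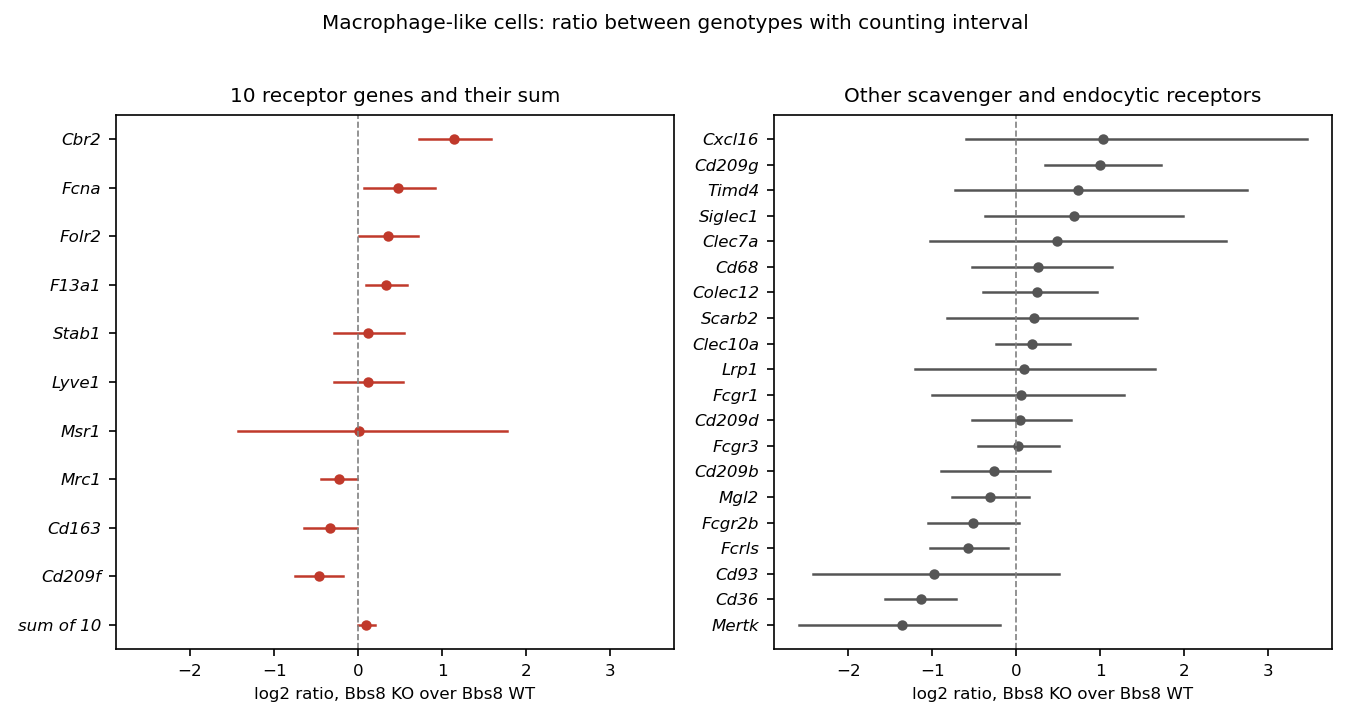
Log2 ratio of KO over WT in macrophage-like cells for the 10 members and their sum, with the exact conditional 95% interval, which covers counting error only. Cbr2 has the highest ratio (1.14) and Cd209f the lowest (-0.47).

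Other genes of the same functions had ratios on both sides of 0. Of 35 other scavenger and endocytic receptors, 20 had at least 20 UMIs in macrophage-like cells, and 13 were higher and 7 lower in KO with a median log2 ratio of 0.07. The lowest were Mertk, the receptor for dying cells (74.7 against 200 CPM, -1.36), and Cd36, the fatty acid and lipoprotein receptor (593 against 1308 CPM, -1.13), whose KO sets all lay below the WT sets. Cd36 was the 1 gene of the 20 with sets apart, against 3.62% of all 2680 genes with at least 20 UMIs. The highest were Cxcl16 (1.03, with 28 and 3 UMIs) and the lectin Cd209g (763 against 382 CPM, 0.99), whose sets overlapped. Cd209g belongs to the same lectin family as Cd209f and had a ratio of the opposite sign, but the counts of such similar genes are uncertain, as reads could be split between them.

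Of 24 other genes of resident perivascular macrophages, 22 had at least 20 UMIs, 12 higher and 10 lower, with a median of 0.06. Hmox1, haem oxygenase (1.07, with 38 and 4 UMIs), and Slc40a1, the iron exporter ferroportin (0.94, with 43 and 5 UMIs), were the highest. The KO sets lay below the WT sets for 2 genes of this list and above them for 0. Over all 2680 genes with at least 20 UMIs, sets were apart in either direction for 3.62%. The 2 genes, named after their values were seen, were Pf4 (1357 against 1962 CPM, -0.53), platelet factor 4 and also a naming marker, and Selenop (7153 against 9520 CPM, -0.41), a selenium carrier. Ang (-1.16, with 15 and 8 UMIs) and Maf (776 against 1326 CPM, -0.77), a transcription factor, were the lowest. Of 13 lipid-associated macrophage genes, 7 had at least 20 UMIs, with a median of 0.30. Lgals3 (1.01) and Lpl (0.89), lipoprotein lipase, whose KO sets (297 to 429 CPM) all lay above the WT sets (0 to 283 CPM), were the highest and Plin2 (-1.30), a lipid droplet protein, and Ctsd (-0.39) the lowest. Lpl passed the minimum only through its KO counts, with 82 UMIs against 10 in WT, so nothing is read from its sets. Of 7 MHC class II genes, which present antigen, 6 had at least 20 UMIs, and all 6 were lower in KO with overlapping sets, from H2-DMb1 (-1.73) and Cd74 (-0.82) to H2-DMa (-0.38) and H2-Ab1 (2846 against 3397 CPM). Over all genes in macrophage-like cells, the median was 0.05 with at least 20 UMIs and -0.11 with at least 200. The share of all genes that were lower was not counted. Of the 13 markers used for naming, 10 were lower, with a median of -0.42, the lowest being Mertk (-1.36) and C1qa (-1.02), and Cd68 stood at 0.26. The part of the naming and of the foreign markers in these ratios was not tested.

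Most macrophage-like cells carried member mRNA. When each cell was thinned to 200 UMIs, 86.7% (exact binomial 95% interval, 83.2 to 89.8) of 445 KO cells and 88.9% (81.4 to 94.1) of 108 WT cells had at least 1 member UMI. Shallower cells, 116 and 28, were left out, and the unthinned shares were 89.8% and 89.7%. T cell-like and B cell-like cells, which should lack these genes, gave 3.13% of 1691 cells in KO and 6.58% of 152 in WT at the same depth, with unthinned medians of 272 and 239 UMIs. F13a1 was found in 43.1% and 49.1% of thinned macrophage-like cells, Mrc1 in 38.4% and 48.1%, Cbr2 in 29.7% and 19.4%, Folr2 in 28.8% and 19.4%, and Msr1 in 1.80% and 1.85%. The share of cells with F13a1 was thus lower in KO, although its summed level was higher, and this contrast was not tested. At least 3 members were found in 47.9% (43.1 to 52.6) of KO and 45.4% (35.8 to 55.2) of WT macrophage-like cells, and in 1.86% and 0.862% of monocyte-like cells.

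**Figure D4:**
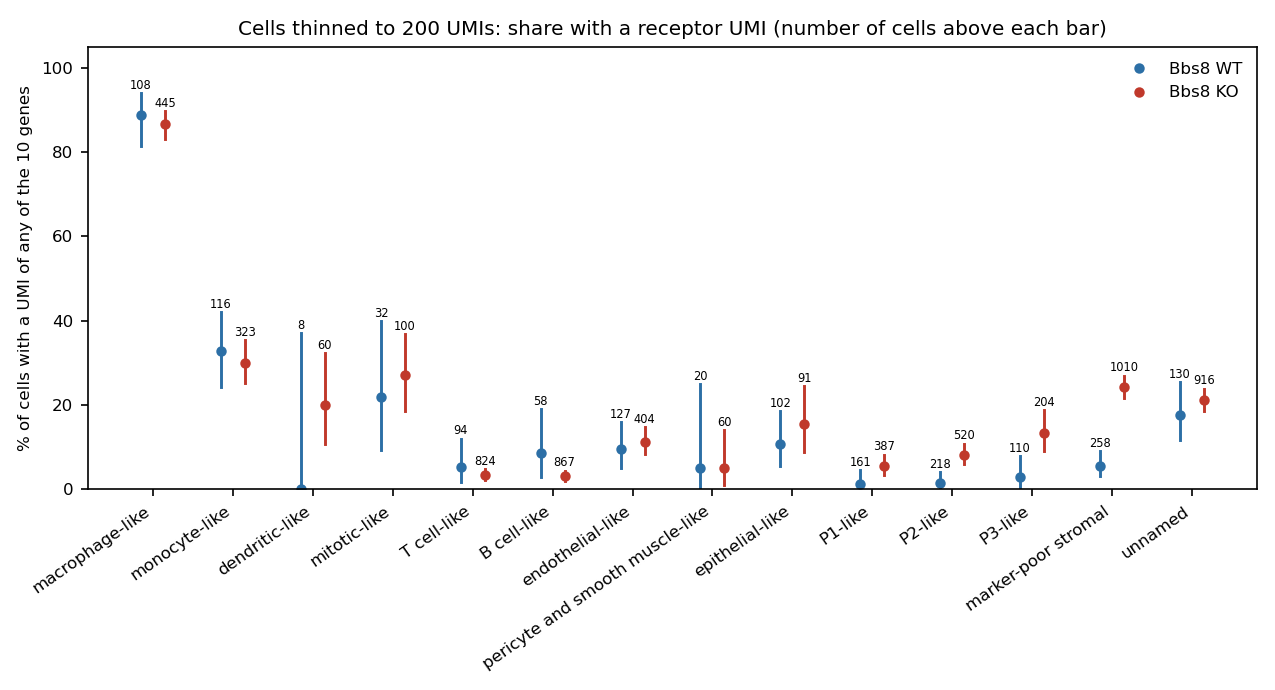
Share of cells, in percent, with at least 1 UMI of the 10 members after each cell was thinned to 200 UMIs, by class and genotype, with exact binomial 95% intervals. Macrophage-like cells stand at 86.7% and 88.9%, monocyte-like cells at 30.0% and 32.8%, and T and B cell-like cells at 3.13% and 6.58%.

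Monocyte-like cells had UMIs of all 10 members, at a lower summed level and in other proportions. In WT, Lyve1, Cbr2 and Msr1 rested on 1 UMI each. Their summed level was 2225 CPM (386 UMIs in 413 cells) in KO and 2442 CPM (135 UMIs in 146 cells) in WT, a log2 ratio of -0.13 (-0.42 to 0.16). Mrc1 and F13a1 made up 66.8% (61.9 to 71.5) of the member UMIs in KO and 80.0% (72.3 to 86.4) in WT, whereas they made up 39.3% and 40.9% in macrophage-like cells. The 2 classes therefore did not share the same proportions. Of the other members, Cd163 was the highest in KO at 144 CPM and Cd163 and Folr2 in WT at 127 CPM, on 7 UMIs each. In T and B cell-like cells, which should lack these genes, Cd163 stood at 18.6 CPM in KO and 203 CPM in WT. Folr2 stood there at 22.3 and 33.9 CPM. After thinning, Mrc1 was found in 14.9% and 17.2% of monocyte-like cells and F13a1 in 10.5% and 12.1%, and the next were Cbr2 in KO (2.48%) and Cd163 and Folr2 in WT (2.59%).

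Mrc1 in monocyte-like cells had 769, 876, 914, 763 and 1195 CPM in the KO sets and 1090, 712, 839, 1178 and 1099 CPM in the WT sets. The sets were mixed, and the totals were 917 and 1031 CPM. F13a1 had 702, 555, 542, 381 and 672 CPM in KO and 327, 1220, 1007, 895 and 1209 CPM in WT. Of the WT sets, 4 lay above every KO set and WT3_p1, with 3 UMIs, lay below them. The totals were 571 CPM (99 UMIs) and 922 CPM (51 UMIs), a log2 ratio of -0.69 (-1.19 to -0.18). F13a1 was thus higher in KO in the macrophage-like totals and lower in the monocyte-like totals, and whether these differences differ was not tested. Cbr2 had 21 UMIs (121 CPM) in KO and 1 UMI (18.1 CPM) in WT, an interval of the log2 ratio of 0.11 to 8.11. Of 2029 genes with at least 20 UMIs in this class, 2.86% had sets that did not overlap, and 0 of the 7 members with at least 20 UMIs did.

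**Figure D5:**
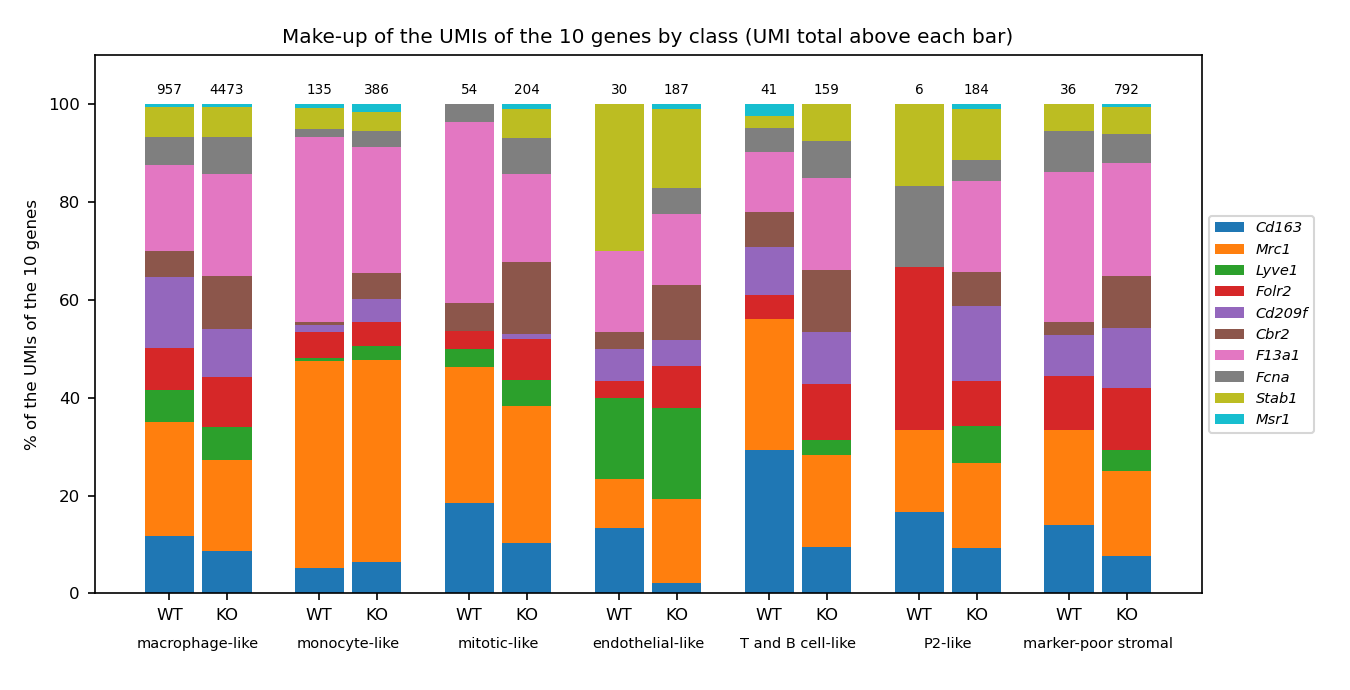
Share of each member among the summed UMIs of the 10 members, in percent, by cell class and genotype. Mrc1 and F13a1 together make up 66.8% and 80.0% in monocyte-like cells against 39.3% and 40.9% in macrophage-like cells, and Lyve1 and Stab1 together 34.8% and 46.7% in endothelial-like cells against 12.9% and 12.7%.

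Endothelial-like cells held few member UMIs, with Lyve1 and Stab1 over-represented among them. The summed level was 806 CPM (187 UMIs in 540 cells) in KO and 542 CPM (30 UMIs in 166 cells) in WT, against 197 and 695 CPM in T and B cell-like cells, so that in WT it lay under the level found in cells that should lack these genes. That level was 445 CPM (276 to 681) without the sets WT3_p1 and WT3_p2, an interval that holds the 542 CPM. Lyve1 and Stab1 made up 34.8% (28.0 to 42.1) and 46.7% (28.3 to 65.7) of these UMIs, against 12.9% and 12.7% in macrophage-like cells. Lyve1 was at 151 CPM (35 UMIs) in KO and 90.4 CPM (5 UMIs) in WT, and Stab1 at 129 CPM (30 UMIs) and 163 CPM (9 UMIs). After thinning, any member was found in 11.1% (8.24 to 14.6) of 404 KO and 9.45% (4.98 to 15.9) of 127 WT cells.

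A few cells with lymphatic markers held much of the endothelial Lyve1. Of the 540 KO endothelial-like cells, 17 had a UMI of a lymphatic endothelial marker such as Prox1 or Flt4. These 17 cells carried 14 of the 35 Lyve1 UMIs, in 3 cells, at 1231 CPM (673 to 2066), and 6 of the 30 Stab1 UMIs, in 3 cells. The other 523 cells had Lyve1 at 95.2 CPM (58.9 to 146) and Stab1 at 109 CPM (69.7 to 162). In the same 17 cells, 6 members had 0 UMIs, Cd163, Mrc1, Folr2, Cd209f, Cbr2 and Fcna, which allows up to 264 CPM each. In WT 2 cells had a lymphatic marker UMI and they held 0 member UMIs.

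Mitotic-like cells, named from cell cycle genes and not assigned an origin, had a summed level of 3407 CPM (204 UMIs in 114 cells) in KO and 2516 CPM (54 UMIs in 36 cells) in WT. Cd209f was nearly missing from them, with 2 and 0 UMIs, although it made up 9.77% and 14.4% of the member UMIs in macrophage-like cells. Mrc1 stood at 952 and 699 CPM, F13a1 at 618 and 932 CPM and Cbr2 at 501 CPM (30 UMIs) and 140 CPM (3 UMIs). Dendritic-like cells, of which there were 74 in KO and 9 in WT, had 33 and 1 member UMIs. In KO, 12 of these were Cbr2 (391 CPM, 202 to 683), 7 were Mrc1, and Cd163, Lyve1 and Msr1 had 0 UMIs, which allows up to 97.7 CPM each.

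In stromal classes, member UMIs were found in more cells of KO than of WT. In P2-like cells, the committed adipocyte precursors, the summed level was 579, 705, 306, 725 and 682 CPM in the KO sets and 0, 57.9, 184, 40.0 and 64.7 CPM in the WT sets. The genotypes did not overlap, with 184 UMIs in 83 of 602 KO cells and 6 UMIs in 6 of 235 WT cells, a log2 ratio of 3.42 (2.39 to 5.0). Of the single members, 4 had at least 20 UMIs here, all 4 through their KO counts, and the sets were apart for 2 of them, Cd209f (28 UMIs in KO and 0 in WT) and F13a1 (34 and 0). All KO sets lay above the WT sets for 2.85% of the 3755 genes with at least 20 UMIs in this class, and nothing is read from the 2 members against that share, as WT alone took none of them past the minimum. In the same cells the marker lists of T cells (644 against 232 CPM), B cells (1213 against 600 CPM), endothelial cells (351 against 94.3 CPM) and macrophages (1252 against 935 CPM) were also higher in KO. The log2 ratio stayed within its interval when cells with a macrophage marker UMI were left out. The part of the other lists in the result was not tested. When clusters were drawn without integration of the sets, the log2 ratio in P2-like cells was 1.27.

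The marker-poor stromal cluster, which held 1614 KO and 337 WT cells, had a summed member level of 1777 CPM (792 UMIs) against 359 CPM (36 UMIs), and after thinning 24.2% of 1010 cells against 5.43% of 258 had a member UMI. In its KO cells the markers of T cells (2124 against 409 CPM), B cells (2826 against 857 CPM), endothelial cells (1512 against 538 CPM) and macrophages (1664 against 917 CPM) were higher too. Stromal markers, the cluster's own, were lower in its KO cells, at 34943 against 69813 CPM, so the cluster was not made up alike in KO and WT. Of the 2 clusters left unnamed, 1 held 976 KO and 192 WT cells, with 1690 CPM (401 UMIs; 1528 to 1863) against 1178 CPM (57 UMIs; 892 to 1526). In this cluster the markers of T cells (2743 against 1240 CPM) and B cells (3859 against 1571 CPM) were higher in KO and those of macrophages (1652 against 2315 CPM) were lower, and the part of such markers in both clusters was not tested. The other was almost all KO, with 827 cells at 1792 CPM (304 UMIs) and 5 WT cells with 0 member UMIs, which allows up to 2745 CPM. The marker-poor stromal cluster held 10.8% of the members' KO UMIs and the unnamed clusters 9.61%. T and B cell-like cells went the other way, at 197 CPM (159 UMIs) in KO and 695 CPM (41 UMIs) in WT, a log2 ratio of -1.79 (-2.32 to -1.29), which was -1.16 without the sets WT3_p1 and WT3_p2 with 8 and 12 of the 41 UMIs. Markers of other classes were also lower in these cells of KO, those of macrophages at 198 against 712 CPM and those of stroma at 1456 against 3745 CPM, and their part in the result was not tested. How much of the members' UMIs outside the macrophage-like class was free RNA was not tested.

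Over all cells of a genotype, the summed members were at 2333 CPM in KO and 1899 CPM in WT, a log2 ratio of 0.30 (0.21 to 0.38). The share of macrophage-like cells was not higher in KO (6.24% and 7.05%) and their own summed level was close (18558 and 17387 CPM), whereas the other cells together stood at 986 and 610 CPM. Cbr2 (254 and 103 CPM, 1.26) and Folr2 (238 and 152 CPM, 0.63) were the 2 members whose KO sets all lay above the WT sets, which held for 14.5% of the 10894 genes tested. Cbr2 had 275, 191, 278, 274 and 245 CPM against 125, 129, 145, 79.0 and 101 CPM, and Folr2 had 225, 246, 260, 237 and 217 CPM against 157, 193, 130, 145 and 144 CPM. Cbr2 was the 1 member over a log2 ratio of 1, a size that 17.3% of genes reached, a share again not matched for UMIs. Lyve1 (0.42) and Fcna (0.62) were higher with overlapping sets, and Cd163 was at -0.15 (-0.40 to 0.11). TMM and DESeq2 scaling moved all log2 ratios over all cells by -0.15 and -0.17, which left that of the summed members at 0.15 and 0.13.

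The genes whose levels were most like the summed members over 28 points, the 14 classes in both genotypes with the unnamed clusters counted as 1, were C1qb (Pearson r = 0.91), Clec10a (0.90), Csf1r (0.89), Ptafr (0.88) and C1qa (0.88), out of 3659 genes with at least 200 UMIs. C1qb and C1qa are chains of complement C1q, Clec10a is a lectin for galactose-type sugars, Csf1r is the receptor for the macrophage growth factor and Ptafr the receptor for platelet-activating factor. Among the members with at least 200 UMIs, r with their sum ran from 0.78 for Cd209f and Lyve1 to 0.95 for F13a1, a value each member is itself part of. The points share libraries, depth and mice, and C1qb, Csf1r and C1qa were also used to name the macrophage-like cluster, so r is a description only.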

How the data were processed

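Single cells were captured with Seq-Well S3. The authors demultiplexed with bcl2fastq 2.20, aligned with STAR inside dropSeqPipe to mm10 with GENCODE vM16, thinned the sets to even depths and removed cells with very few or many genes (101 to 994 per cell remain). The deposited values are whole-number UMI counts per gene and cell. Whether they were taken before or after the thinning is not given in the sources used here. They total 3144195 (Bbs8 KO) and 715989 (Bbs8 WT), and each cell was placed in a genotype by the code in its name, since the 10 sets could not be matched to single samples.

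The members, gene lists and alternatives were chosen with earlier results of these data known. Named are all 10 members, Ttc8, the 2 highest and 2 lowest genes of each list with at least 20 UMIs in macrophage-like cells, and the 5 genes most like the summed members. Outside this rule, Pf4 and Selenop were named after their values were seen. A gene this rule names among the naming markers is not reported here.

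Cells were clustered without the members in Seurat 5.3.0 (R 4.3.3; anchor integration, 2000 features, 30 dimensions, Louvain resolution 0.8, at least 60 cells) and clusters were named by a mean log2 fold over 0.5 across at least 3 markers. Doublets were kept and no caller was run. UMIs were summed per class and genotype or set as CPM (scaled to the same total) with exact Poisson intervals (scipy 1.17.1). Log2 ratios used a pseudocount of 5 CPM and understate changes of low genes, and their intervals are exact conditional ones of the plain ratio. Shares have Clopper-Pearson intervals. Total scaling was compared with TMM (edgeR 4.0.16) and DESeq2 1.42.0 size factors. The log2 ratio with its interval and the thinning were tested on simulated counts, and the clustering, naming and other steps were not. Alternatives for P2-like, monocyte-like and T and B cell-like cells were added after seeing the data.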

Additional observations from a re-analysis of the deposited data

Results flagged for a closer look

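In 34 groups of 5 barcode sets, the highest or lowest set was compared with the others by Dixon's ratio, and 5 groups had a set far from the rest. Chance gives about 1 in 20 for independent sets of equal precision. These sets differ in cells and UMIs and the groups share cells, so no rate is read from the 5. For Cbr2 in macrophage-like cells, set KO5_p3 was at 1377 CPM (51 UMIs) with the other KO sets at 2012 to 2254 CPM, and WT3_p3 was at 2186 CPM (8 UMIs in 13 cells) with the other WT sets at 748 to 989 CPM. For the summed members in endothelial-like cells, WT3_p3 was at 1069 CPM (9 UMIs in 25 cells) and the other WT sets at 361 to 538 CPM. For the summed members over the stromal clusters of types P1, P2 and P3, KO6_p1 was at 280 CPM (33 UMIs) with the others at 533 to 611 CPM, and WT3_p2 was at 451 CPM (17 UMIs) with the others at 0 to 124 CPM. Without WT3_p3 the KO sets of macrophage-like Cbr2 lay above all the remaining WT sets, and the log2 ratio was 1.28.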

How the results depend on the processing

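No paired analysis was possible because the barcode sets could not be matched to the numbered samples and the series text names 1 mouse per genotype. The share of member UMIs in macrophage-like cells of KO, 61.0%, was 63.5% when the members took part in clustering, 64.6% without integration, 68.8% in cells with at least 200 genes, 55.0% with cells thinned to 200 UMIs before clustering, 52.7% without the 6% of cells with the most UMIs, 12.6% with the macrophage-like cells that hold another class's marker UMI counted among the other cells, 53.9% with macrophages called from markers alone and 59.5% to 62.3% with a set left out. In WT, 70.4% became 79.4% in cells with at least 200 genes, 31.9% with cells holding another class's marker counted among the others and 68.4% to 71.9% with a set left out. The thinned share of macrophage-like cells with a member, 86.7% in KO, was 91.6% with the members clustered, 81.8% without integration, 91.8% with at least 200 genes, 95% without cells holding another class's marker, 69.2% at 100 UMIs, 89.8% unthinned and 85.9% to 87.7% with a set left out. In WT, 88.9% became 69.9% at 100 UMIs and 86.5% to 91.3% with a set left out.

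The summed log2 ratio in macrophage-like cells, 0.09, was 0.36 with at least 200 genes, -0.13 without the 6% of cells with the most UMIs, 0.26 without cells holding another class's marker, 0.29 with markers alone, 0.22 with TMM and with DESeq2, and -0.023 to 0.15 with a set left out, the lowest without WT4_p2. The median member ratio, 0.11, was 0.45 with at least 200 genes, -0.041 without the 6% of cells with the most UMIs and 0.06 to 0.37 with a set left out. No member's sets were apart, but 1 was with at least 200 genes (Cbr2, higher), without the 6% of cells with the most UMIs (Cd209f, lower), with markers alone (Cbr2, higher) and with a set left out (0 to 1: Cd209f without KO5_p3, Cbr2 without WT3_p3). Over all cells, 0.30 became 0.40 with at least 200 genes, 0.11 without the 6% of cells with the most UMIs, 0.15 with TMM, 0.13 with DESeq2 and 0.18 to 0.35 with a set left out.

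Without cells holding another class's marker, Cd163 turned to 0.13 and Mrc1 to 0.049, and Mrc1 turned to 0.016 with at least 200 genes. Cbr2 kept its direction in 24 of 24 alternatives, at 0.60 to 1.74, and Folr2, F13a1, Fcna and Cd209f kept theirs in 24 of 24 each. The summed ratio in P2-like cells, 3.42, was 1.76 at resolution 1.2, 1.27 without integration, 1.43 with at least 200 genes and 3.21 to 3.59 with a set left out. That of monocyte-like cells changed sign in 2 of 16 alternatives. In T and B cell-like cells, -1.79 became -1.16 without WT3_p1 and WT3_p2. The causes were not tested. The 5 Msr1 UMIs and the 13 to 49 macrophage-like cells per WT set limit the precision.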

Other observations

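Macrophage-like cells were also divided by their member UMIs after thinning to 200 UMIs. CPM in these groups was scaled to the UMIs of all genes other than the members. The MHC class II genes, summed, stood in KO at 7060 CPM in the 59 cells with 0 member UMIs, 8322 CPM in the 135 with 1 to 2, 6962 CPM in the 152 with 3 to 5 and 3587 CPM (exact Poisson 95% interval, 3104 to 4125) in the 99 with 6 or more. In WT the same groups of 12, 32, 41 and 23 cells stood at 7506, 8437, 10064 and 8759 CPM. The macrophage naming markers ran over these groups from 8201 to 20539 CPM in KO and from 15012 to 24505 CPM in WT. Over the same groups the stromal markers ran from 11490 to 2567 CPM and the T and B cell markers from 5657 to 2258 CPM in KO. In WT the stromal markers stood at 3431, 8362, 1118 and 4797 CPM and the T and B cell markers at 2359, 1419, 1025 and 1460 CPM, and their part in these values was not tested. As the series text names 1 mouse per genotype, these are values with no test.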
